A study of Mus musculus with 9 samples.

Results

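Type I interferon-stimulated genes are the genes that cells switch on when interferon alpha or beta reaches their surface, and 39 of them were followed here across 3 kinds of mouse cortex sample. They were taken by name from the deposited table of 56748 genes (the row with the highest total where a name repeats). All 39 were among the 18093 genes with enough counts to be tested. The samples were wild-type C57BL/6J mice of 2 to 3 months, with 3 libraries in each of 3 groups, all made from polyadenylated RNA of cortex. Reactive cultures were grown from the core of a lancet (stab) wound in medium with B27 and serum (10% FBS), and the unsorted culture went into the library. Injured libraries came from cells of the wounded cortex that had been dissociated and sorted by flow cytometry to remove neurons, a CD171-positive and ACSA-2-negative fraction. Uninjured libraries came from intact cortex that went through the same sort. The sources give different times: per the sample labels, wounded tissue was taken 1 day after injury and cultures were kept for 6 days, whereas the series design gives 3 days for the injured libraries, and 24 h followed by 8 days in vitro for the cultures. The series design calls the replicates biological, but does not say how many animals stand behind each library.

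The cells labelled non-neuronal held little neuronal RNA. The 6 neuronal markers summed to 4.46 to 20.5 CPM (counts-per-million, a count relative to its library total) in the 9 libraries. Astrocyte markers summed to 62.0, 79.7 and 112 CPM in the cultures, to 2061, 2331 and 4883 CPM in injured libraries and to 7239, 4308 and 6894 CPM in uninjured libraries. Monocyte and macrophage markers summed to 35896, 31027 and 30832 CPM in the cultures, where the lysozyme gene Lyz2 made up most of the sum. The library totals ran between 12205049 and 24302770 counts. Uninjured replicates 2 and 3 stood apart, with 182 and 151 CPM summed over 1999 olfactory and vomeronasal receptor genes, against 14.4 to 44.1 CPM in the other 7 libraries. Injured replicate 1 stood apart in the interferon-stimulated genes themselves, as described with those values.

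Type I interferons are released by cells that sense foreign or misplaced nucleic acid. They bind a receptor made of Ifnar1 and Ifnar2, whose kinases Jak1 and Tyk2 phosphorylate transcription factors, Stat2 among them. With Irf9 these form a complex that binds a short promoter element, the interferon-stimulated response element, and turns on many genes whose products block viral replication, sense nucleic acid or tune the response. In the brain, microglia, astrocytes, endothelium and infiltrating leukocytes can all carry such a signature. Many of the same genes also answer to interferon gamma or lambda, so the list by itself does not name a ligand.

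The response element was looked for first. RefSeq promoter windows of 300 bases (250 before and 50 after the annotated start, mouse build GRCm38.p6) were at hand for 30 of the 39 genes. The submitters aligned to GRCm39, so the windows give letters and not positions in their build. The core of the element, written as GAAA, 2 bases of any kind and GAAA again, and searched on both strands, was present in 16 of the 30 genes (53.3%), against 3.99% of the 27025 genes with a window. Of the 30 genes, 9 held at least 2 copies, against 0.266% of all genes. Of the 27 response-element cores found, 18 lay within 150 bases upstream of the start. Usp18, Oas2, Dhx58, Zbp1, Mx1, Mx2, Rtp4, Ifi27l2a and Parp14 had no window. A match is a run of letters and not a measured binding site.

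The windows below are those of the genes on which the comparisons turn: Isg15, which gives the system its name, and 3 families whose near copies behaved alike or unlike. Each runs 5′ to 3′ on the strand of its gene, and capitals mark the cores in either orientation. Isg15 at chr4:156200769-156201068 (minus strand) held 3 overlapping cores, the farthest starting 78 bases upstream. Ifit3 at chr19:34583279-34583578 (plus strand) and Ifit3b at chr19:34607707-34608006 (plus strand) each held 2, in the same letters and the same spacing. Oas1a at chr5:120907476-120907775 (minus strand) and Oas1g at chr5:120887564-120887863 (minus strand) each held an overlapping pair close to the start. Ifitm3 at chr7:141010695-141010994 (minus strand) held 2 cores just after the start and Ifitm2 at chr7:140955912-140956211 (minus strand) held 1 before it. Ifitm1 at chr7:140967826-140968125 (plus strand) held none in this window.
Isg15: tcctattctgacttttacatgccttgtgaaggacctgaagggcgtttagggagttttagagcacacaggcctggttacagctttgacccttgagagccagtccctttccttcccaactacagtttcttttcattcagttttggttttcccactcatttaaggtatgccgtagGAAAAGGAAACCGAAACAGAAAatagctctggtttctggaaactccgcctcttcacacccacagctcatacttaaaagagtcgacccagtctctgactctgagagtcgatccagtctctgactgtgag
Ifit3: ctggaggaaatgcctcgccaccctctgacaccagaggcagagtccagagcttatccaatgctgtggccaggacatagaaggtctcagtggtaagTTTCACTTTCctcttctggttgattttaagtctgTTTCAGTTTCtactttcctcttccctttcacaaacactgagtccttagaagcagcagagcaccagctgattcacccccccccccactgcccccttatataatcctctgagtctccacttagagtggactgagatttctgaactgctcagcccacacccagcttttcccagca
Ifit3b: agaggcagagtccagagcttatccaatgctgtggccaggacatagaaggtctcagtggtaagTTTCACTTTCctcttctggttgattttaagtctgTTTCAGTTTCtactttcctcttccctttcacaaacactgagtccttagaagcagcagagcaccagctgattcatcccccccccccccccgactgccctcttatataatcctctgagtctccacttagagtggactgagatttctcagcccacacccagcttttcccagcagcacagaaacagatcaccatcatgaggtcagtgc
Oas1a: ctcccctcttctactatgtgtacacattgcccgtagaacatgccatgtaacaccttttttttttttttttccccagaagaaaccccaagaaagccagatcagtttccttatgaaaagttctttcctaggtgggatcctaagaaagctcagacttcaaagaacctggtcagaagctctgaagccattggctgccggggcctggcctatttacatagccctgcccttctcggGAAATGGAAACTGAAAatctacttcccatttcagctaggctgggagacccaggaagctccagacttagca
Oas1g: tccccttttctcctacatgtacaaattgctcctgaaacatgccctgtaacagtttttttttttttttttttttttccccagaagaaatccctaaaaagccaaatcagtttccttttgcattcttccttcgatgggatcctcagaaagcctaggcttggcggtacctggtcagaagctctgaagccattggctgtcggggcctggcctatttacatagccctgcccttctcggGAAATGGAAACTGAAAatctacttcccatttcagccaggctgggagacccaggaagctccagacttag
Ifitm3: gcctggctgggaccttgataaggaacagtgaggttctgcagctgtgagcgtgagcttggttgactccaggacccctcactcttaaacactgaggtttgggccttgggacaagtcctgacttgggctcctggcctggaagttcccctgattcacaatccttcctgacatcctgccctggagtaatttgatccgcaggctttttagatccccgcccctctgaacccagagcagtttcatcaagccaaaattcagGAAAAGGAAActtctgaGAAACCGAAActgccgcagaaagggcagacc
Ifitm2: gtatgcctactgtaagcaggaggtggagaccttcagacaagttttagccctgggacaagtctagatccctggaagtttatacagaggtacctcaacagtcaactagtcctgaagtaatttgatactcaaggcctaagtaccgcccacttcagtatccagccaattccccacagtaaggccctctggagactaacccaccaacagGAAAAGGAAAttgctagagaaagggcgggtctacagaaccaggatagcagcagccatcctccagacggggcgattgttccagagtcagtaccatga
Ifitm1: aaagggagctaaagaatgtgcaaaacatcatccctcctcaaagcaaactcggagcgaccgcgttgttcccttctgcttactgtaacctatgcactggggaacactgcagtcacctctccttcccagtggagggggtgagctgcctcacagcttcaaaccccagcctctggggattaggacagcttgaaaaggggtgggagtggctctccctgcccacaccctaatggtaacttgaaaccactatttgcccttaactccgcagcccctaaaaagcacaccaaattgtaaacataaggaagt

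Injured cortex carried the interferon-stimulated genes at far higher levels than uninjured cortex. Of the 39 genes, 38 were called higher and 0 lower in injured libraries by edgeR's quasi-likelihood test, its p-values adjusted by Benjamini and Hochberg's method across the whole table (adjusted p under 0.05). By the same rule 8.99% of all genes tested were called higher and 2.87% lower, 1626 and 519 genes, and scaling by upper quartiles gave 1352 and 761. The median log2 fold change was 3.01 over the 39 genes and 0 over all genes tested, and the fold changes of the 39 ran between 1.01 and 5.90. In 37 of the 39 every injured library lay above every uninjured library, against 16.1% of all genes tested. The calls leaned on both outlying sets of libraries, and calls over the whole table fell as well. With injured replicate 1 dropped, 28 of the 39 were called higher, beside 855 of the 19031 genes then tested. With the second uninjured library dropped, 28 were again called, beside 968 of 18833 genes, against 1626 with every library. With both uninjured replicates 2 and 3 dropped together, 1 uninjured library remained, which is assumed to vary like the other groups. Fewer genes were called in that fit, among the 39 and over the whole table. All 39 fold changes stayed above 0 in each of these fits, with medians of 2.22, 2.88 and 2.81 in that order. In bulk RNA, fewer cells of a type and less RNA per cell cannot be told apart.

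**Figure D1:**
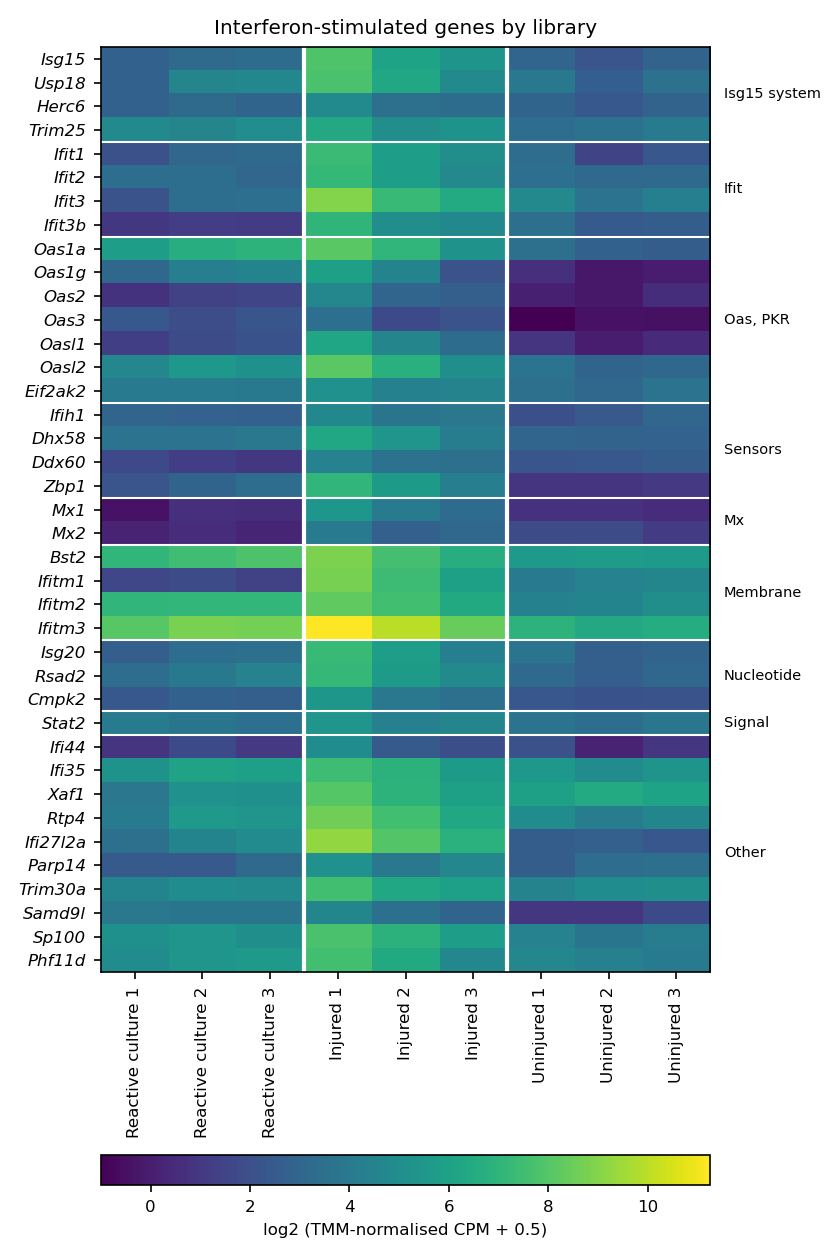
Each row is 1 of the 39 genes, grouped by role, and each column 1 library. Colour gives log2 of TMM-normalised CPM plus 0.5, from dark (low) to yellow (high), and injured replicate 1 is the brightest column in every row, with Ifitm3 at 2445 CPM its highest value.

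Levels of single genes from here on are CPM normalised with TMM (trimmed mean of M-values) factors, in the order of replicates 1, 2 and 3. Sums over gene or marker lists are CPM of the library total, in the same order. A value after ± is the standard error of the log2 fold change. Isg15 encodes a ubiquitin-like protein that is attached to other proteins after interferon. It measured 233, 68.4 and 39.6 CPM in injured libraries, against 7.45, 4.22 and 6.92 CPM in uninjured libraries. The groups did not overlap, and the log2 fold change was 4.20 ± 0.57 (adjusted p = 0.000617, edgeR's quasi-likelihood test with Benjamini-Hochberg adjustment). Trim25, a ubiquitin ligase that activates the RNA sensor RIG-I, measured 83.4, 32.3 and 38.6 CPM in injured libraries, against 9.93, 11.5 and 16.5 CPM in uninjured libraries. Its lowest injured library was well above its highest uninjured one, with a log2 fold change of 2.02 ± 0.34 (adjusted p = 0.00254 in the same test). Usp18, the protease that removes Isg15 and damps the receptor, had a log2 fold change of 3.31 ± 0.69 (adjusted p = 0.00883 in edgeR's quasi-likelihood test), which lost its call without uninjured replicate 2 (adjusted p = 0.0521).

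The Ifit genes encode proteins with repeated helical motifs that bind viral RNA and hold back its translation. All 4 rose in injured libraries, with log2 fold changes of 3.01 for Ifit2, 3.10 for Ifit3b, 3.71 for Ifit3 and 3.93 for Ifit1, and adjusted p-values between 0.00151 and 0.00338 (edgeR's quasi-likelihood test). Ifit3 measured 508, 158 and 89.4 CPM in injured libraries, against 26.5, 12.2 and 18.9 CPM in uninjured libraries. Ifit3b measured 129, 32.6 and 25.5 CPM in injured libraries, against 11.0, 5.11 and 5.65 CPM in uninjured libraries. Injured replicate 1 was the highest and the groups were apart in both. Their coding sequences are 99.1% identical over 1209 bases (GENCODE vM21), so reads could be split between them in ways that the sources used here do not state, and the value of either copy alone is uncertain.

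The Oas genes encode oligoadenylate synthetases, which sense double-stranded RNA and activate RNase L. With PKR they formed the role group with the largest median log2 fold change, 4.31 over 7 genes, and several were close to 0 CPM in uninjured libraries. Oas1g measured 62.1, 22.5 and 3.94 CPM in injured libraries, against 1.10, 0.359 and 0.486 CPM in uninjured libraries, a log2 fold change of 5.51 ± 0.90. Oas1a, its near copy, measured 279, 134 and 37.9 CPM in injured libraries, against 10.9, 6.50 and 5.71 CPM in uninjured libraries, a log2 fold change of 4.28 ± 0.62. In both, injured replicate 3 came closest to the uninjured libraries without reaching them. These 2 coding sequences are 96.7% identical over 1101 bases, and their split of reads is uncertain in the same way. Oas3 measured 10.6, 2.82 and 3.84 CPM in injured libraries, against 0, 0.269 and 0.243 CPM in uninjured libraries, where 1 library held no count (log2 fold change 5.0 ± 0.75). Oas2 measured 24.9, 7.38 and 6.01 CPM in injured libraries, against 0.552, 0.359 and 1.03 CPM in uninjured libraries (log2 fold change 4.31 ± 0.63). The adjusted p-values of these 4 ran between 0.000884 and 0.00190 by edgeR's quasi-likelihood test, and Oas1g was not called by limma-voom (adjusted p = 0.0573).

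The Oas-like pair is more distant, with coding sequences 64.6% identical over the aligned bases. Oasl1, which in mice restrains translation of Irf7, measured 75.0, 23.6 and 9.48 CPM in injured libraries, against 1.38, 0.493 and 0.911 CPM in uninjured libraries. Oasl2 measured 274, 110.0 and 33.8 CPM in injured libraries, against 12, 7.22 and 7.89 CPM in uninjured libraries. Both were far apart between groups, at log2 fold changes of 5.29 ± 0.72 for Oasl1 (adjusted p = 0.000639) and 3.94 ± 0.61 for Oasl2 (adjusted p = 0.00132, both by edgeR's quasi-likelihood test).

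Among sensors of nucleic acid, Zbp1, which recognises left-handed (Z-form) RNA and DNA and can trigger necroptosis, was nearly silent without injury. It measured 133, 50.9 and 18.3 CPM in injured libraries, against 1.27, 1.35 and 1.52 CPM in uninjured libraries, with a log2 fold change of 5.6 ± 0.66 (adjusted p = 0.000231, edgeR's quasi-likelihood test). Every injured library exceeded every uninjured one. Dhx58, which encodes LGP2, a regulator of the other RNA helicase sensors, had a log2 fold change of 2.74 ± 0.43 (adjusted p = 0.00144, same test).

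The Ifitm proteins sit in the plasma membrane and endosomes and hinder the fusion of viruses, and Bst2 (tetherin) holds budding virus particles at the surface. Ifitm3 measured 2445, 1002 and 344 CPM in injured libraries, against 122, 84.1 and 97.2 CPM in uninjured libraries. Ifitm1 measured 424, 167 and 62.1 CPM in injured libraries, against 15.8, 21.3 and 24.4 CPM in uninjured libraries. Ifitm2 measured 307, 184 and 88.0 CPM in injured libraries, against 20.6, 23.0 and 32.4 CPM in uninjured libraries. All 3 were lowest in injured replicate 3 and still above the uninjured range there. Their log2 fold changes were 3.64 ± 0.57 for Ifitm3, 3.41 ± 0.54 for Ifitm1 and 2.93 ± 0.38 for Ifitm2, with adjusted p-values between 0.000472 and 0.00150 (edgeR's quasi-likelihood test). Bst2 measured 459.8, 198 and 99.4 CPM in injured libraries, against 47.7, 52.0 and 46.8 CPM in uninjured libraries, a log2 fold change of 2.37 ± 0.45 (adjusted p = 0.00467).

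The Mx genes encode dynamin-like GTPases that block nuclear or cytoplasmic steps of viral replication, and C57BL/6 mice are known to carry alleles that make no working Mx protein. Mx1 RNA measured 42.7, 15.7 and 9.21 CPM in injured libraries, against 1.16, 1.17 and 0.972 CPM in uninjured libraries, with a log2 fold change of 4.34 ± 0.61 (adjusted p = 0.000746, edgeR's quasi-likelihood test). Mx2 measured 15.8, 6.17 and 8.19 CPM in injured libraries, against 3.09, 3.01 and 1.76 CPM in uninjured libraries, a log2 fold change of 1.93 ± 0.41 (adjusted p = 0.00962). The groups were apart in both, but Mx2 lost its call without injured replicate 1 (adjusted p = 0.0698). Genes that act on nucleotides rose as well: Isg20, an exonuclease, had a log2 fold change of 3.16 ± 0.60. Rsad2 (viperin), which makes a chain-terminating nucleotide, had one of 3.25 ± 0.51, and Cmpk2, the mitochondrial kinase beside it in the same pathway, one of 2.52 ± 0.46. Their adjusted p-values ran between 0.00153 and 0.00507 by edgeR's quasi-likelihood test.

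Of the remaining genes, Ifi27l2a had the largest fold change of the 39. It measured 616, 255 and 113 CPM in injured libraries, against 5.57, 6.28 and 4.49 CPM in uninjured libraries, a log2 fold change of 5.90 ± 0.61 (adjusted p = 0.000104, edgeR's quasi-likelihood test). Samd9l, which restrains protein synthesis and cell growth, measured 24.6, 11.2 and 7.24 CPM in injured libraries, against 1.49, 1.44 and 2.91 CPM in uninjured libraries, a log2 fold change of 2.88 ± 0.46 (adjusted p = 0.00153). Sp100, a component of nuclear bodies, measured 214, 117 and 55.5 CPM in injured libraries, against 21.0, 13 and 17.1 CPM in uninjured libraries, a log2 fold change of 2.91 ± 0.40 (adjusted p = 0.000683). The groups did not overlap in any of these 3. Rtp4, a chaperone of some membrane receptors, and Trim30a, which restrains Toll-like receptor signalling in mice, had log2 fold changes of 3.16 ± 0.55 and 1.92 ± 0.37 in that order, with adjusted p-values of 0.00294 for Rtp4 and 0.00522 for Trim30a by edgeR's quasi-likelihood test.

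Some calls rested on single libraries, mostly those with the smallest fold changes. Xaf1, a partner of the caspase inhibitor XIAP, was the 1 gene not called: it measured 261, 120.4 and 62.9 CPM in injured libraries, against 61.6, 88.5 and 69.7 CPM in uninjured libraries. Injured replicate 3 lay inside the uninjured range, and the log2 fold change was 1.01 ± 0.46 (adjusted p = 0.181, edgeR's quasi-likelihood test). Without that library it was 1.36 (adjusted p = 0.0200), and Xaf1 was also called without a filter on low counts (adjusted p = 0.00125). Stat2, a transcription factor below the receptor, measured 41.0, 19.8 and 23.4 CPM in injured libraries, against 12.2, 10.3 and 13.5 CPM in uninjured libraries. Eif2ak2 (PKR), the kinase that halts translation on double-stranded RNA, measured 36.7, 20.2 and 21.8 CPM in injured libraries, against 10.9, 8.34 and 12.1 CPM in uninjured libraries. Both were above the uninjured range in every injured library. Herc6, the mouse ligase for Isg15, measured 27.4, 10.8 and 9.55 CPM in injured libraries, against 7.28, 4.66 and 6.86 CPM in uninjured libraries. Parp14, an ADP-ribosyltransferase, measured 36.5, 14.7 and 25 CPM in injured libraries, against 5.57, 9.78 and 11.0 CPM in uninjured libraries. In these 2 the gap between the lowest injured and the highest uninjured library was small.

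The log2 fold changes of those genes were 1.22 ± 0.29 for Stat2, 1.32 ± 0.27 for Eif2ak2, 1.34 ± 0.39 for Herc6 and 1.53 ± 0.38 for Parp14, with adjusted p-values between 0.00730 and 0.0445 by edgeR's quasi-likelihood test. Without injured replicate 1 the adjusted p became 0.115 for Stat2, 0.0530 for Eif2ak2, 0.280 for Herc6 and 0.121 for Parp14. Without uninjured replicate 2 it became 0.0904, 0.0502, 0.177 and 0.0691 for the same genes in that order. Herc6 was not called with DESeq2 size factors, upper-quartile factors, limma-voom or 2 groups alone either (adjusted p between 0.0575 and 0.105). It also lost its call without any 1 of the cultures, of uninjured replicate 1 (adjusted p = 0.0589) or of uninjured replicate 3 (adjusted p = 0.106), and Parp14 without uninjured replicate 1 (adjusted p = 0.0556). Ifi44 had 30.9, 5.02 and 3.33 CPM in injured libraries, against 3.59, 0.628 and 1.40 CPM in uninjured libraries, so that the groups overlapped. Its log2 fold change of 2.81 ± 0.83 (adjusted p = 0.0461) was not called in 6 of the 9 fits that left out 1 library or under 6 other alternatives, limma-voom among them (adjusted p = 0.115), and was 1.13 (adjusted p = 0.379) without injured replicate 1. The RNA sensors Ifih1 (MDA5) and Ddx60, with log2 fold changes of 1.70 ± 0.36 and 1.61 ± 0.34 in that order, lost their calls without injured replicate 1 (adjusted p = 0.0631 for Ifih1 and 0.0661 for Ddx60) and without uninjured replicate 2 (adjusted p = 0.0565 for Ifih1 and 0.0530 for Ddx60). Ifi35 and Phf11d, at 1.55 ± 0.39 and 2.28 ± 0.51 in that order, lost theirs without injured replicate 1 (adjusted p = 0.129 for Ifi35 and 0.0704 for Phf11d), uninjured replicate 2 or uninjured replicate 3.

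**Figure D2:**
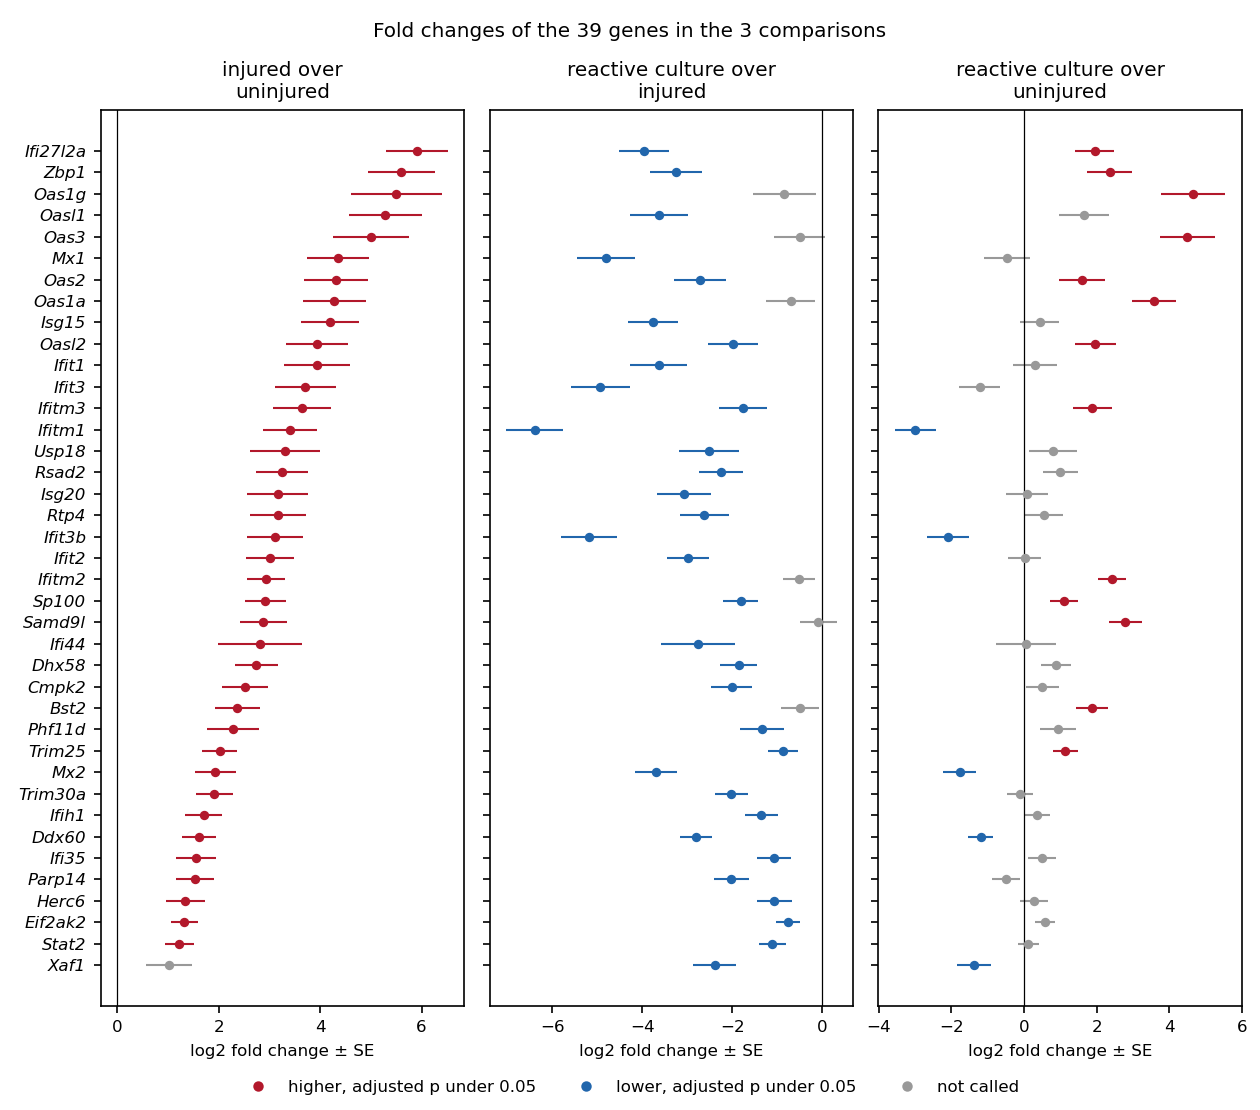
Points are log2 fold changes of the 39 genes and bars their standard errors in the 3 comparisons, sorted by injured over uninjured. Red points were called higher, blue points lower and grey points were not called at an adjusted p of 0.05; all points of injured over uninjured lie above 0 and all points of reactive culture over injured below 0.

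The injured libraries differed among themselves in these genes. All 39 genes were highest in injured replicate 1, where 24.6% of all genes tested were highest. The lowest library was replicate 3 for 32 genes and replicate 2 for 7, against 7152 and 6261 of 18066 genes tested. The median ratio of replicate 1 over replicate 3 was 4.64 for the 39 genes and 0.971 for all genes tested. Oas1g had the widest ratio at 15.8 and Parp14 the narrowest at 1.46. The median coefficient of variation of the 39 genes was 26.4% among cultures, 78.9% among injured libraries and 24.6% among uninjured libraries. In uninjured libraries the highest library was replicate 1 for 22 genes, replicate 2 for 5 and replicate 3 for 12. Over the 18054 genes tested with a count there, the numbers were 6601, 5079 and 6374 in that order.

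Summed over the 39 genes, the level relative to the library total was 8849, 3416 and 2287 CPM in injured libraries, against 702, 629 and 793 CPM in uninjured libraries. Monocyte, macrophage and lymphocyte markers were also highest in injured replicate 1 and lowest in injured replicate 3, whereas the 8 neutrophil markers were not, at 523, 467 and 536 CPM in injured libraries, against 201, 277 and 302 CPM in uninjured libraries, with 4 of the 8 called higher. The 10 monocyte and macrophage markers summed to 8819, 5713 and 2726 CPM in injured libraries, against 562, 706 and 801 CPM in uninjured libraries, and 9 of the 10 were called higher after injury. Ly6c2, which marks inflammatory monocytes, measured 878, 224 and 63.3 CPM in injured libraries, against 2.59, 11.7 and 8.38 CPM in uninjured libraries. The 10 lymphocyte markers summed to 362, 156 and 144 CPM in injured libraries, against 18.0, 46.8 and 61.4 CPM in uninjured libraries, with 8 of the 10 called higher. The 8 microglial markers summed to 7684, 13454 and 6570.1 CPM in injured libraries, against 16169, 16365 and 11843 CPM in uninjured libraries, with log2 fold changes between -1.09 and -0.07, of which edgeR called none (adjusted p under 0.05). Klk1, a marker of plasmacytoid dendritic cells, which are strong makers of interferon alpha, measured 8.53, 2.46 and 0.747 CPM in injured libraries, against 0, 0.0897 and 0 CPM in uninjured libraries. The 7 markers of those cells summed to 369, 264 and 382 CPM in injured libraries, against 340.5, 302 and 349 CPM in uninjured libraries, and 5 of the 7 were called higher. Beside these counts of markers, 8.99% of all genes tested were called higher for injured over uninjured. The part of the cells behind these markers in the levels of the interferon-stimulated genes was not tested.

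**Figure D3:**
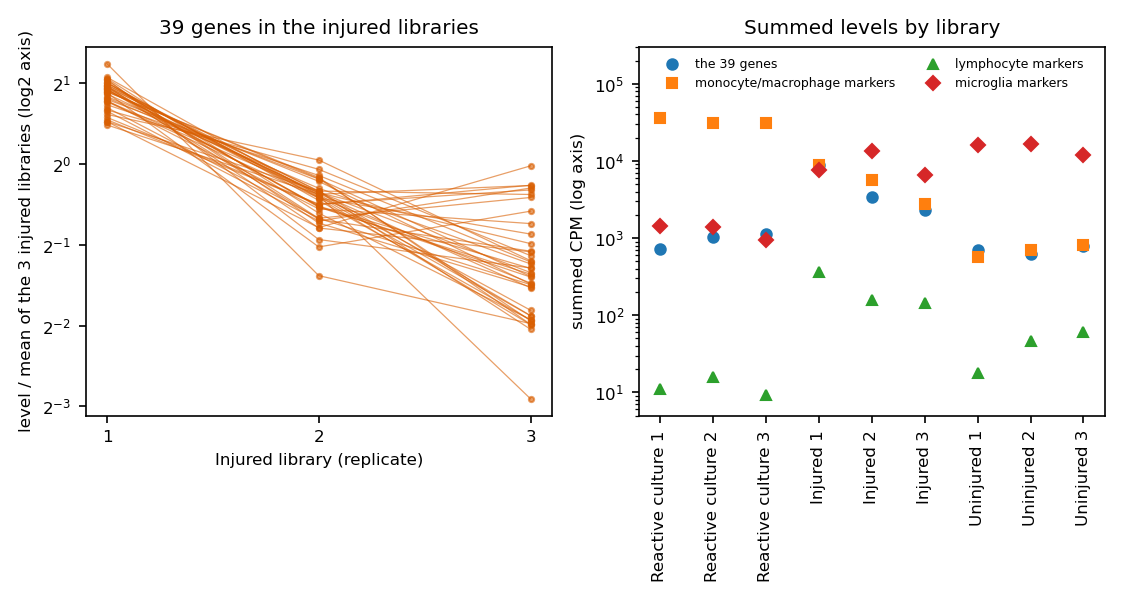
Left, the level of each of the 39 genes in the 3 injured libraries, divided by its mean over them (log2 axis): every line starts highest at replicate 1. Right, the summed CPM of the 39 genes and of monocyte and macrophage, lymphocyte and microglial markers in each library (log axis), where the 39 genes reach 8849 CPM in injured replicate 1 and monocyte and macrophage markers are highest in the cultures.

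Reactive cultures held less RNA of these genes than injured cortex. Of the 39 genes, 33 were called lower and 0 higher in cultures than in injured libraries by edgeR's quasi-likelihood test with Benjamini-Hochberg adjustment. The shares over all genes tested were 30.1% lower and 20.0% higher, or 50.1% in either direction. The median log2 fold change was -2.02 over the 39 genes, against -0.19 over all genes tested. In 29 genes every culture lay below every injured library, against 33.8% of all genes tested. Without injured replicate 1 the median was -1.36 and 25 genes were called lower. Sorting, the time after injury and growth in serum all differed between these groups and cannot be told apart from each other. The marker lists differed too: all 8 microglial markers were called lower in cultures, as were 9 of 10 lymphocyte, 6 of 7 plasmacytoid dendritic and 6 of 6 astrocyte markers, while 4 of 10 monocyte and macrophage markers were higher and 6 lower. The 10 lymphocyte markers summed to 11.1, 15.8 and 9.12 CPM in cultures, and Klk1 had 0 counts in all 3. Their part in the result was not tested.

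Ifitm1 showed the largest drop. It measured 2.52, 2.99 and 2.19 CPM in cultures, a log2 fold change of -6.40 ± 0.63 against the injured libraries (adjusted p = 7.59e-06, edgeR's quasi-likelihood test). The Ifit3 copies followed, with 1.47, 1.84 and 1.80 CPM for Ifit3b and 3.87, 10.2 and 10.7 CPM for Ifit3 in cultures. Their log2 fold changes were -5.19 ± 0.63 for Ifit3b (adjusted p = 4.02e-05) and -4.93 ± 0.65 for Ifit3 (adjusted p = 7.61e-05, same test). Mx1 RNA measured 0.246, 1.15 and 1.02 CPM and Mx2 0.614, 0.977 and 0.704 CPM in cultures, below every injured library, with log2 fold changes of -4.81 ± 0.64 for Mx1 (adjusted p = 7.95e-05) and -3.70 ± 0.46 for Mx2 (adjusted p = 4.95e-05, edgeR's quasi-likelihood test). Ifi27l2a measured 11.2, 22.3 and 30.0 CPM in cultures (log2 fold change -3.96 ± 0.56, adjusted p = 0.000121, same test). Isg15, Ifit1, Oasl1, Zbp1, Isg20, Ifit2, Ddx60 and Oas2 had log2 fold changes between -3.77 and -2.72, all called lower.

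The other 6 genes were not called, and their levels in cultures fell inside the spread of the injured libraries or overlapped it. Samd9l measured 14.4, 13 and 13 CPM in cultures, a log2 fold change of -0.09 ± 0.41 (adjusted p = 0.872, edgeR's quasi-likelihood test). Bst2 measured 132, 180.3 and 228 CPM in cultures, a log2 fold change of -0.49 ± 0.42 (adjusted p = 0.354), and Ifitm2 132, 139 and 136 CPM, a log2 fold change of -0.51 ± 0.36 (adjusted p = 0.249). Among the synthetases, Oas3 measured 4.6, 3.28 and 4.38 CPM in cultures, a log2 fold change of -0.50 ± 0.57 (adjusted p = 0.486). Oas1a measured 55.6, 99.4 and 122 CPM in cultures, a log2 fold change of -0.70 ± 0.54 (adjusted p = 0.291), and Oas1g 8.41, 18.3 and 22.8 CPM, a log2 fold change of -0.84 ± 0.70 (adjusted p = 0.334, all by edgeR's quasi-likelihood test). Without a filter on low counts Oas1a (adjusted p = 0.0242) and Oas1g (adjusted p = 0.0212) were called lower. A single injured library set the sign or the call of these 6. Without injured replicate 1 the log2 fold change was 0.54 for Samd9l, 0.27 for Bst2, 0.29 for Oas3, 0.09 for Oas1a and 0.31 for Oas1g, all above 0 and none called. Without injured replicate 3, Bst2 (adjusted p = 0.0358), Ifitm2 (adjusted p = 0.0139), Oas1a (adjusted p = 0.0187) and Oas1g (adjusted p = 0.0258) were called lower.

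Among the 33 genes called lower in cultures, 8 lost the call when some single library was left out. Without injured replicate 1 these were Trim25 (log2 fold change -0.34), Eif2ak2 (-0.43), Herc6 (-0.42), Phf11d (-0.54), Ifi35 (-0.63), Ifitm3 (-0.86), Oasl2 (-1.03) and Ifi44 (-1.12), with adjusted p-values between 0.0756 and 0.326. All 8 also lost it without reactive culture replicate 1, and 6 of them without reactive culture replicate 3. Limma-voom did not call Trim25, Herc6, Phf11d, Ifi35 or Ifi44 (adjusted p between 0.0624 and 0.141). Ifitm3 had a log2 fold change of -1.76 ± 0.53 with all libraries (adjusted p = 0.0159, edgeR's quasi-likelihood test) and measured 266, 436 and 416 CPM in cultures, which overlapped injured replicate 3. Oasl2 measured 24.8, 46.4 and 35.1 CPM in cultures, a log2 fold change of -1.98 ± 0.56 (adjusted p = 0.0112), and it too overlapped that library.

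Set against uninjured cortex, the cultures split the list. Of the 39 genes, 13 were called higher and 5 lower in cultures than in uninjured libraries by edgeR's quasi-likelihood test with Benjamini-Hochberg adjustment. Among all genes tested 27.5% were called higher and 33.1% lower, together 60.5%, so the share of higher genes in the list stood near the background and the share of lower genes under it. The median log2 fold change was 0.55 over the 39 genes, against -0.17 over all genes tested. Groups did not overlap in 25 of the 39 genes, 19 of them higher and 6 lower, against 32.2% higher and 37.0% lower of all genes tested. With uninjured replicates 2 and 3 left out, which leaves 1 uninjured library, the median log2 fold change of the 39 genes was 0.34. The reference levels in both culture comparisons are those of the injured and uninjured libraries already given. Injury, sorting and growth in serum all differed between cultures and uninjured libraries and cannot be told apart from each other. The marker lists differed too: all 8 microglial, 6 of 6 astrocyte and 6 of 6 oligodendrocyte markers were called lower in cultures. Of the 10 monocyte and macrophage markers, 5 were called higher and 3 lower. Their part in the result was not tested.

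The synthetases carried the largest gains. Oas1g was higher in cultures by 4.67 ± 0.88 on the log2 scale (adjusted p = 0.000719), Oas3 by 4.50 ± 0.75 (adjusted p = 0.000285) and Oas1a by 3.58 ± 0.60 (adjusted p = 0.000308, all by edgeR's quasi-likelihood test). Every culture exceeded every uninjured library in these 3. Oasl2 was higher by 1.97 ± 0.57 (adjusted p = 0.01). Oas2 measured 1.23, 2.18 and 2.42 CPM in cultures, higher by 1.60 ± 0.62 (adjusted p = 0.0418), a call that was lost without any 1 of 4 libraries: reactive culture replicate 2 or 3, or uninjured replicate 1 or 2 (adjusted p between 0.0921 and 0.144). It was also lost with upper-quartile factors, limma-voom and a filter of 1 CPM in 3 libraries. Oasl1 measured 1.90, 3.10 and 3.75 CPM in cultures and was not called, with a log2 fold change of 1.66 ± 0.69 (adjusted p = 0.0543). It passed the threshold without any 1 of the injured libraries or without uninjured replicate 1 (adjusted p between 0.0105 and 0.0490), and by the DESeq2 Wald test (adjusted p = 0.0219), with 2 groups alone and without a filter.

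Outside the synthetases, Samd9l was higher in cultures than in uninjured libraries by 2.79 ± 0.46 on the log2 scale (adjusted p = 0.000248, edgeR's quasi-likelihood test). Zbp1 measured 4.24, 7.18 and 10.0 CPM in cultures and was higher by 2.36 ± 0.61 (adjusted p = 0.00564), but was not called by limma-voom (adjusted p = 0.0788). Ifi27l2a was higher by 1.95 ± 0.53 (adjusted p = 0.00729) and Bst2 by 1.88 ± 0.44 (adjusted p = 0.00292). No culture overlapped an uninjured library in any of these 4. Trim25 measured 28.9, 23.7 and 31.2 CPM in cultures and was higher by 1.14 ± 0.34 (adjusted p = 0.0117). Sp100 measured 34.7, 42.0 and 33.5 CPM in cultures and was higher by 1.11 ± 0.38 (adjusted p = 0.0253, same test), a call lost without reactive culture replicate 1 or 2, or uninjured replicate 2 or 3 (adjusted p between 0.0513 and 0.0990), or with upper-quartile factors (adjusted p = 0.0517).

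The Ifitm family moved in opposite directions in culture. Ifitm2 was higher in cultures than in uninjured libraries by 2.42 ± 0.38 on the log2 scale (adjusted p = 0.000170) and Ifitm3 by 1.88 ± 0.53 (adjusted p = 0.00933, both by edgeR's quasi-likelihood test). Ifitm1 had a log2 fold change of -2.99 ± 0.56 (adjusted p = 0.000682). Every culture lay above every uninjured library for Ifitm2 and Ifitm3, and below every one for Ifitm1. These directions held under every normalisation and every left-out library tried. Their coding sequences are 80.9% to 82.1% identical over the aligned bases. In injured libraries the same 3 genes had all risen. Of their 3 windows printed above, that of Ifitm1 is the 1 without a response-element core, and a link between core and direction was not tested. For cultures over uninjured libraries, 6 of the 16 listed genes with a core were called higher and 2 lower. Of the 14 whose window held none, 4 were called higher and 2 lower.

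The other genes lower in cultures than in uninjured cortex were Ifit3b, Mx2, Xaf1 and Ddx60. Ifit3b had a log2 fold change of -2.09 ± 0.59 (adjusted p = 0.00883, edgeR's quasi-likelihood test), while Ifit3, its near copy, had -1.22 ± 0.58 and was not called (adjusted p = 0.0829). The copies were not tested against each other, and both calls turned with the method: limma-voom did not call Ifit3b (adjusted p = 0.0801), while Ifit3 was called by the DESeq2 Wald test (adjusted p = 0.0463), with 2 groups alone (adjusted p = 0.00846) and without a filter. Ifit3 passed once injured replicate 1 was dropped, at an adjusted p of 0.0195, and likewise at 0.0260 once replicate 3 of that group was dropped. Mx2 had a log2 fold change of -1.77 ± 0.45 (adjusted p = 0.00519), and Mx1 -0.46 ± 0.64 (adjusted p = 0.545), with cultures overlapping uninjured libraries for Mx1 but not for Mx2. Xaf1 measured 14.0, 36.3 and 34.7 CPM in cultures, a log2 fold change of -1.37 ± 0.46 (adjusted p = 0.0222). That call was lost without reactive culture replicate 1 (adjusted p = 0.0947) or uninjured replicate 2 (adjusted p = 0.0663). Ddx60 measured 2.76, 1.95 and 1.49 CPM in cultures, a log2 fold change of -1.19 ± 0.35 (adjusted p = 0.0116), lost without reactive culture replicate 3 (adjusted p = 0.0525).

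**Figure D4:**
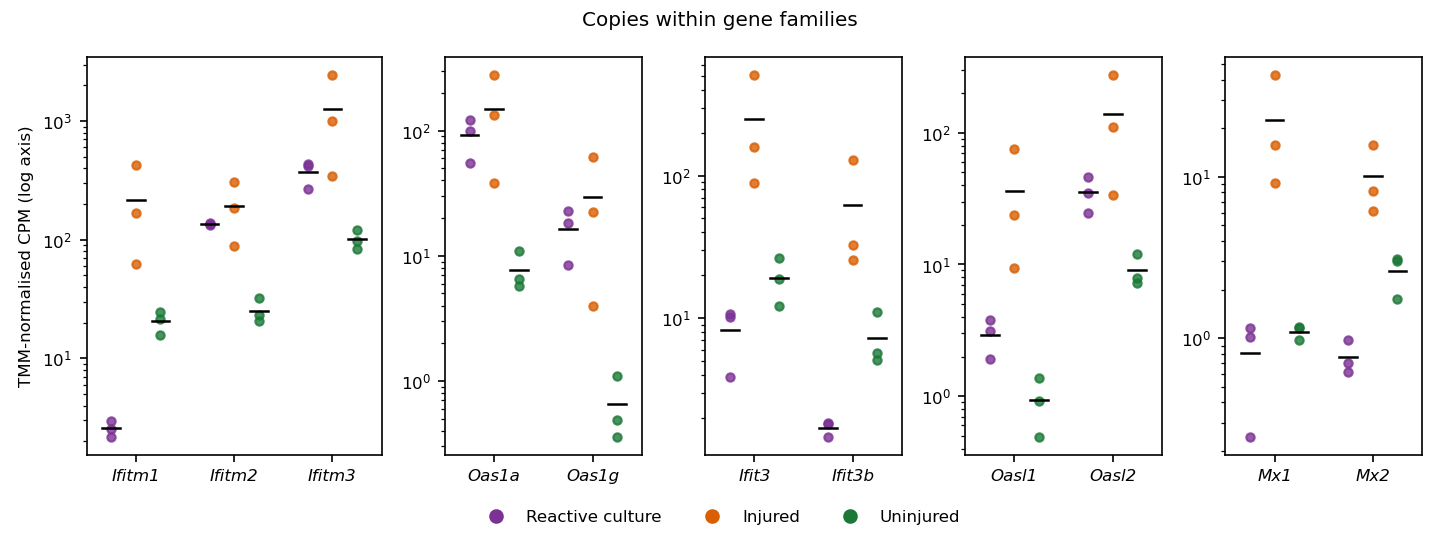
Points are single libraries and bars group means of TMM-normalised CPM (log axis) for the copies within 5 families, cultures left, injured middle and uninjured right. Ifitm1 sits lowest in cultures, at 2.52, 2.99 and 2.19 CPM, whereas Ifitm2, Ifitm3, Oas1a and Oas1g sit above uninjured libraries there.

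The remaining 21 genes were not called between cultures and uninjured libraries, and several were close to equal. Isg15 measured 6.57, 8.79 and 9.70 CPM in cultures, inside or near the uninjured values, with a log2 fold change of 0.43 ± 0.53 (adjusted p = 0.494, edgeR's quasi-likelihood test). Ifit2 measured 10.4, 10.3 and 7.66 CPM in cultures, a log2 fold change of 0.02 ± 0.45 (adjusted p = 0.966). Stat2 measured 15.5, 13 and 10.7 CPM in cultures, with 0.12 ± 0.29 (adjusted p = 0.738). The sign of the smallest differences depended on the scaling: scaling by upper quartiles shifted the median of all genes tested by -0.195, and the log2 fold change was -0.17 for Ifit2 and -0.08 for Stat2. A p-value over the threshold does not show that levels were equal.

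Per kilobase of annotated exon, merged over all transcripts of a gene, Ifitm3 held the highest level of the 39 genes in all 3 groups. It averaged 549.6 CPM per kb in cultures, 1864 CPM per kb in injured libraries and 149 CPM per kb in uninjured libraries, using exon lengths of GENCODE vM21. In cultures Ifitm2 (207 CPM per kb), Bst2 (199 CPM per kb) and Oas1a (49.0 CPM per kb) followed. In injured libraries the next were Ifi27l2a (709 CPM per kb), Ifitm2 (295 CPM per kb), Bst2 (279 CPM per kb) and Ifitm1 (199 CPM per kb). In uninjured libraries they were Bst2 (54.0 CPM per kb) and Ifitm2 (38.6 CPM per kb). The spread among injured libraries described above applies to these means as well.

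The genes were also split by whether their window held a response-element core. The 16 genes with a core had a median log2 fold change of 3.18 for injured over uninjured, against 2.85 for the 14 genes whose window held none. For cultures over injured the medians were -1.56 with a core and -1.99 without, and for cultures over uninjured 0.50 in both. These medians are descriptions over few genes and carry no test.

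Upstream of the list, the interferons themselves were rare. Ifnb1, the gene of interferon beta, measured 0, 0 and 0.0782 CPM in cultures, 6.69, 3.92 and 1.29 CPM in injured libraries and 1.21, 0.224 and 0 CPM in uninjured libraries, that is 1, 255 and 27 counts in all. The log2 fold change for injured over uninjured was 3.03 ± 0.95 (adjusted p = 0.0596, edgeR's quasi-likelihood test, not called). It was called without injured replicate 3 (adjusted p = 0.0127) or without uninjured replicate 1 (adjusted p = 0.0124), and also by the DESeq2 Wald test (adjusted p = 0.0216), by limma-voom (adjusted p = 0.0445) and by edgeR without a filter on low counts. Counts of Ifnb1 pooled over injured libraries against those pooled over cultures, scaled by the summed TMM library sizes, gave a ratio of 170. The 95% counting interval was 30.2 to 6735. Of 14 interferon alpha genes in the table, 3 had any count, 36 counts in all and only in injured libraries: 6 of Ifna1, 26 of Ifna2 and 4 of Ifna4. Ifng, the gene of interferon gamma, measured 0, 0.0575 and 0 CPM in cultures, 6.13, 3.24 and 1.60 CPM in injured libraries and 0.331, 0.718 and 0.364 CPM in uninjured libraries. Its log2 fold change for injured over uninjured was 2.91 ± 0.63 (adjusted p = 0.0109, same test), a call that ended with injured replicate 1 dropped (0.0864 adjusted) or with the third uninjured library dropped (0.0514 adjusted). Both interferons were highest in injured replicate 1 and lowest among the injured in replicate 3.

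Both genes of the receptor were detected in every library. Ifnar1 measured 80.0, 56.7 and 51.4 CPM in cultures, 57.2, 63.7 and 43.2 CPM in injured libraries and 38.7, 33.1 and 32.4 CPM in uninjured libraries. It was higher in cultures than in uninjured libraries by 0.85 ± 0.22 on the log2 scale (adjusted p = 0.00621, edgeR's quasi-likelihood test), and not called for injured over uninjured (log2 fold change 0.65 ± 0.22, adjusted p = 0.0805, same test). Leaving out injured replicate 3 brought the last under the threshold (adjusted p = 0.0246). Ifnar2 measured 162, 152 and 143 CPM in cultures, 169, 183 and 82.4 CPM in injured libraries and 109.9, 112 and 81.5 CPM in uninjured libraries. Its log2 fold changes were 0.07 ± 0.28 for cultures over injured and 0.51 ± 0.28 for injured over uninjured, neither called; without injured replicate 3 the second was called (adjusted p = 0.0150). Neither receptor gene was highest in injured replicate 1.

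The factors Irf7 and Irf9, which act below the receptor or amplify its signal, rose after injury. Irf7, which amplifies interferon production, measured 9.45, 25.1 and 28.5 CPM in cultures, 554, 182 and 43.5 CPM in injured libraries and 12.9, 6.46 and 5.40 CPM in uninjured libraries. Its log2 fold changes were 4.97 ± 0.81 for injured over uninjured (adjusted p = 0.00180) and -3.63 ± 0.75 for cultures over injured (adjusted p = 0.00189, both by edgeR's quasi-likelihood test). Injured replicate 1 was the highest. Irf9 was higher in injured than in uninjured libraries by 1.32 ± 0.36 (adjusted p = 0.0340), with overlapping groups and a call lost in 7 of the 9 fits without 1 library, injured replicate 1 among them (adjusted p = 0.202). Upper-quartile factors, limma-voom and 2 groups alone ended it too (adjusted p between 0.0501 and 0.0954).

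**Figure D5:**
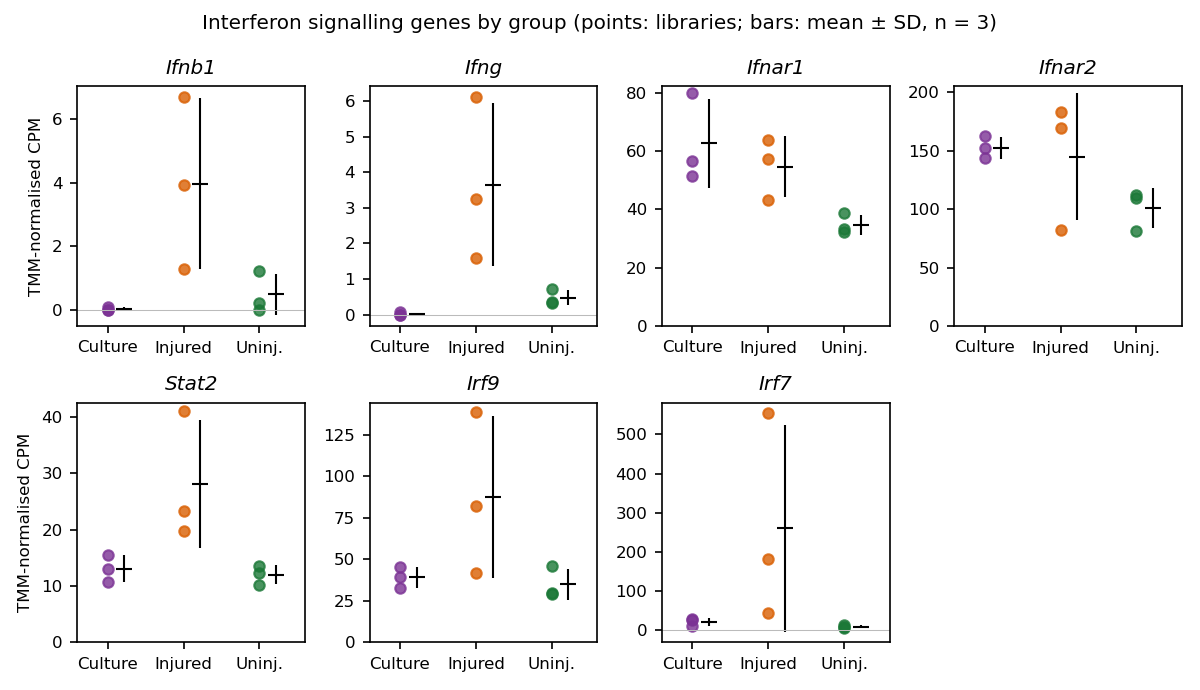
Points are TMM-normalised CPM of single libraries and bars the mean ± SD (n = 3) of the interferon genes Ifnb1 and Ifng, the receptor genes Ifnar1 and Ifnar2, and the transcription factors Stat2, Irf9 and Irf7 in cultures, injured and uninjured libraries. Irf7 reaches 554 CPM in injured replicate 1, and the receptor genes differ least between groups.

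Counted over the lists of the pathway, genes of interferon ligands, receptor and kinases, induction and feedback numbered 53, of which 32 were tested. For injured over uninjured, 10 of these were called higher and none lower, beside the 8.99% higher and 2.87% lower among all genes tested, and the count changed to 5 with injured replicate 1 dropped, 17 with injured replicate 3 dropped, and 6 with either uninjured replicate 2 or 3 dropped. Ikbke, a kinase that phosphorylates Irf3 and Irf7, was higher in injured than in uninjured libraries by 1.86 ± 0.35 on the log2 scale (adjusted p = 0.00484, edgeR's quasi-likelihood test). Samhd1, which degrades deoxynucleotides, was higher by 2.26 ± 0.41 (adjusted p = 0.00372), and Socs3, a feedback inhibitor of Jak signalling, by 1.66 ± 0.34 (adjusted p = 0.00810). For cultures over injured libraries 5 were called higher and 14 lower, beside 20.0% higher and 30.1% lower among all genes tested, a lower count of 9 without injured replicate 1. The higher count was 3 without reactive culture replicate 1 or 3 or injured replicate 3, and 2 without reactive culture replicate 2. The lower genes included Socs3 at -4.36 ± 0.39 (adjusted p = 3.46e-06), Sting1, the adaptor of cytosolic DNA sensing, at -2.39 ± 0.33 (adjusted p = 0.000117) and Tlr3, a receptor for double-stranded RNA, at -2.0 ± 0.23 (adjusted p = 2.68e-05, all by edgeR's quasi-likelihood test). For cultures over uninjured libraries 7 were higher, with Ikbke at 3.20 ± 0.36 (adjusted p = 1.48e-05), and 7 lower. Both of these counts lie under the shares among all genes tested, 27.5% higher and 33.1% lower.

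A further 30 interferon-stimulated genes outside the list were counted in the same way. For injured over uninjured, 20 were called higher, beside 8.99% of all genes tested, with a median log2 fold change of 1.49. The count became 9 with injured replicate 1 dropped, 10 with the second uninjured library dropped and 11 with the third one dropped. Ms4a4c, a surface protein of monocytes and lymphocytes, measured 0.368, 0.862 and 0.313 CPM in cultures, 698, 302 and 67.7 CPM in injured libraries and 5.02, 6.19 and 5.04 CPM in uninjured libraries. Its log2 fold change was 6.03 ± 0.71 for injured over uninjured (adjusted p = 0.000221) and -9.37 ± 0.86 for cultures over injured (adjusted p = 4.56e-06, edgeR's quasi-likelihood test). Nlrc5, which switches on class I antigen presentation genes, was higher in injured libraries by 2.85 ± 0.41 (adjusted p = 0.000803), and Tap1, the peptide transporter of that pathway, by 2.21 ± 0.33 (adjusted p = 0.00110). For cultures over injured libraries, 19 were called lower, beside 30.1% of all genes tested, a count of 11 without injured replicate 1. For cultures over uninjured libraries 8 were called higher (4 without uninjured replicate 2) and 2 lower, with counts of 4 without injured replicate 1 and 6 without injured replicate 3 for the lower ones. The higher count is near the 27.5% of all genes tested, and the lower count under the 33.1%. Irf1, an activator shared with interferon gamma, was lower in cultures, with a log2 fold change of -2.57 ± 0.36 against injured libraries (adjusted p = 0.000117) and -1.47 ± 0.35 against uninjured libraries (adjusted p = 0.00317, edgeR's quasi-likelihood test).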

How the data were processed

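Whole-number counts per gene were taken as deposited by the authors in 1 table of 9 libraries. Per the submitters' processing notes, reads were aligned with HISAT2 to GRCm39, with no version stated. The counting tool, its annotation and its use of strand are each not given in the sources used here, so reads of overlapping, antisense and near-identical genes may be split or shared. Library totals ran between 12205049 and 24302770 counts, and intervals cover counting error only.

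Genes were kept by filterByExpr (18093 of 56748), scaled by TMM and fitted with 1 mean per group and 6 residual degrees of freedom. The test was edgeR 4.0.16's quasi-likelihood test in R 4.3.3, with Benjamini and Hochberg's adjustment across every gene tested and a threshold of 0.05. Scripts were tested on simulated data. Standard errors are the fold change divided by the square root of F. Normalised CPM uses TMM-scaled library sizes, and sums of lists use CPM of the library total.

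The 39 genes, the pathway lists and the marker lists were chosen with earlier results of these data known. Of the pathway, marker and copy lists, 1 gene was matched by an older symbol and 1 was not matched. Values in every library are given for the 5 highest and 5 lowest fold changes of each comparison, genes called against the majority or not called, genes higher in cultures, and the family copies. Outside the 39 genes they are given for Ifnb1, Ifng, Ifnar1, Ifnar2, Irf7 and Irf9, with fold changes for up to 3 genes of each pathway list with the smallest adjusted p. 1 gene of these lists is counted but not reported here. Isg15, Ifit2, the cell markers Ly6c2 and Klk1, and Ifna1, Ifna2 and Ifna4 were added after their values were seen. Alternatives used DESeq2 1.42.0 (size factors and Wald test), upper-quartile factors, limma-voom (limma 3.58.1), no filter or 1 CPM in 3 libraries, 2 groups alone, a replicate block, and left-out libraries. Promoter windows came from RefSeq tables of GRCm38.p6, and no coordinate was converted between builds. Coding sequences were aligned with Biopython.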

Additional observations from a re-analysis of the deposited data

How the results depend on the processing

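With every alternative tried, none of the 39 genes was called lower for injured over uninjured or higher for reactive culture over injured. In the edgeR analysis as reported, every fold change of the 39 pointed the other way, so the count at an unadjusted p under 0.05 is 0 too. Samd9l was above 0 (0.14) for reactive culture over injured with limma-voom. For injured over uninjured, 28 to 39 of the 39 genes were called higher with 1 library left out, beside 855 to 2424 of all genes. Under the other alternatives it was 35 to 39. Without uninjured replicates 2 and 3 together, which left 1 uninjured library, fewer were called and the median log2 fold change was 2.81. For reactive culture over injured 25 to 37 were lower with 1 library left out and 28 to 35 otherwise. For reactive culture over uninjured, 11 to 17 were higher and 4 to 6 lower with 1 library left out. Over all genes tested these fits called 4190 to 5331 higher and 5314 to 6816 lower. Without uninjured replicates 2 and 3, which leaves 1 uninjured library, the median log2 fold change of the 39 was 0.34. The cause of these changes was not tested. Same-numbered deviations correlated by -0.088 to 0.353, with 3 of 9 pairs over 0.1, and 9 of 18 checks matched a library best with its own number. With 3 libraries per group, these values do not settle whether the replicate numbers pair the libraries. The fit with a replicate block called 37 higher for injured over uninjured, 30 lower for reactive culture over injured, and 14 higher and 5 lower for reactive culture over uninjured. With the block, Herc6 was not called for injured over uninjured (adjusted p = 0.0502), nor Herc6, Ifi35 and Phf11d for reactive culture over injured (0.0598, 0.0611 and 0.0953), while Ifnb1 was called for injured over uninjured (0.0133) and Oasl1 and Ifnar2 for reactive culture over uninjured (0.0254 and 0.0390).

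Of the genes from ligands to feedback, 5 to 17 were higher for injured over uninjured with 1 library left out and 0 without uninjured replicates 2 and 3; for reactive culture over injured 2 to 5 were higher and 9 to 18 lower, and for reactive culture over uninjured 3 were higher without uninjured replicates 2 and 3. Of the further interferon-stimulated genes, 9 to 26 were higher for injured over uninjured with 1 library left out, 13 with 2 groups alone and 2 without uninjured replicates 2 and 3. For reactive culture over injured 0 to 1 were higher, 1 with the replicate block, and 11 to 22 lower. For reactive culture over uninjured 4 to 10 were higher with 1 library left out and 0 without uninjured replicates 2 and 3, and 2 to 6 lower, with 5 under upper-quartile factors, 1 with limma-voom and 6 with 2 groups alone. Upper-quartile factors moved the median of all genes tested by -0.125 for injured over uninjured, where 1352 genes were called higher and 761 lower, against 1626 and 519 with TMM, and 1916 and 1247 by the DESeq2 Wald test.

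Every fold change whose sign turned was uncalled as reported. For reactive culture over injured, the log2 fold changes with 1 library left out ran over -1.16 to 0.09 for Oas1a, -1.36 to 0.31 for Oas1g, -0.81 to 0.29 for Oas3, -0.87 to 0.27 for Bst2, -0.40 to 0.54 for Samd9l, -0.01 to 0.33 for Ifnar1 and -0.20 to 0.28 for Ifnar2. For reactive culture over uninjured, the log2 fold changes with 1 library left out ran over -0.10 to 1.01 for Ifit1, -0.07 to 0.17 for Ifit2, -0.13 to 0.48 for Isg20, 0.00 to 0.26 for Stat2, -0.42 to 0.96 for Ifi44 and -0.26 to 0.03 for Trim30a. Without uninjured replicates 2 and 3, reactive culture over uninjured gave -0.54 for Ifit1, -0.16 for Ifit2, -0.48 for Isg20, -0.91 for Ifi44, 0.15 for Parp14, 0.31 for Trim30a and -0.24 for Irf9. With DESeq2 size factors, reactive culture over uninjured gave -0.01 for Ifit2. With upper-quartile factors, reactive culture over uninjured gave -0.17 for Ifit2, -0.10 for Isg20, -0.08 for Stat2, -0.15 for Ifi44 and -0.03 for Irf9. With the DESeq2 Wald test, reactive culture over uninjured gave -0.01 for Ifit2 and 0.00 for Ifi44. With a filter of 1 CPM in 3 libraries, reactive culture over uninjured gave -0.03 for Ifit2 and -0.01 for Ifi44. With 2 groups alone, reactive culture over uninjured gave -0.06 for Ifit2, 0.00 for Isg20 and -0.04 for Ifi44. Over all single-gene results and alternatives, the call was lost in 189 cases, gained in 47 and on the same side of the threshold in 2616, and the sign turned in 44. Depth limits the genes with few counts: Oas1g had 20, 8 and 8 counts in uninjured libraries.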

Other observations

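Near copies of the 39 genes outside the list were also read, 22 of 23 of them in the table and 16 tested. For injured over uninjured, 8 were called higher by edgeR's quasi-likelihood test, beside 8.99% of all genes tested. For cultures over injured libraries 1 was called higher and 11 lower, beside 20.0% and 30.1% of all genes tested. For cultures over uninjured libraries 4 were higher and 5 lower, beside 27.5% and 33.1%. Phf11a, a copy of Phf11d, measured 85.7, 33.3 and 10.3 CPM in injured libraries, against 0.938, 0.583 and 0.789 CPM in uninjured libraries, a log2 fold change of 5.80 ± 0.70 (adjusted p = 0.000259, edgeR's quasi-likelihood test). Ifitm6, a copy of Ifitm1 known from myeloid cells, measured 0.921, 0.402 and 0.547 CPM in cultures, 91.8, 48.3 and 16.5 CPM in injured libraries and 1.54, 2.87 and 3.83 CPM in uninjured libraries. Its log2 fold change was -6.37 ± 0.67 for cultures over injured libraries (adjusted p = 1.17e-05, same test). For cultures over injured libraries Ifi27l2b, the 1 copy called higher there, went against Ifi27l2a. Ifi27l2b measured 6.44, 7.70 and 7.04 CPM in cultures, 0.0471, 0.157 and 0.170 CPM in injured libraries and 0, 0 and 0.182 CPM in uninjured libraries. Its log2 fold change was 5.72 ± 0.70 for cultures over injured libraries (adjusted p = 4.30e-05, same test). In cultures both Ifi27l2a and Ifi27l2b lay above every uninjured library. Phf11a, Ifitm6 and Ifi27l2b were picked after their values were seen.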
